A study of Mus musculus with 4 samples.

Results

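CX3CR1high macrophages of the mouse large intestine were compared with CD11chigh CD11b- dendritic cells (DCs) of the same tissue, gene by gene, on 1 Affymetrix 3' array for each population. Both arrays were taken from a series of 4. The probe sets used were all non-control sets that name exactly 1 gene, 20380 of the 22690 on the array, and they name 12393 genes. All cells came from the lamina propria, the connective tissue beneath the gut epithelium, of C57BL/6J mice with no treatment named. The macrophages were gated as CD11c+ CD11b+ CX3CR1high and the DCs as CD11chigh CD11b-, and the sample title of the DCs is CD103. CD11c and CD11b are integrin chains, CX3CR1 is the receptor for fractalkine, and CD103 is the integrin chain that holds lymphocytes and DCs to epithelial cadherin. The other 2 arrays held CD11c+ CD11b+ CX3CR1- cells and CD11c- CD11b+ cells. The age and number of the mice, and whether cells of several mice were pooled, are not given in the sources used here.

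Resident macrophages of the gut wall arise mostly from monocytes that mature in the tissue under colony-stimulating factor 1. They take up bacteria and dying cells, digest them in lysosomes, and stay in place. DCs that carry CD103 and lack CD11b belong to the lineage of cross-presenting DCs, which depends on the transcription factors IRF8 and BATF3 and on the growth factor receptor FLT3. These DCs carry antigen through lymph to the draining node, guided by the chemokine receptor CCR7, and present it there to T cells on MHC class I and class II.

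Values are array signals in linear units, which the authors scaled to the same trimmed mean on both arrays. Signals below 103, the median over the probe sets of the 4 arrays, were set to that floor. If only 1 of the 2 signals lay under the floor, the ratio can only be bounded from below ("at least"), and if both did, no ratio is given. Ratios are macrophages over DCs throughout, so that a positive log2 ratio is a higher signal in the macrophages. With 1 array for each population no difference could be tested, and no value below carries an error between animals. For 2020 genes with several probe sets the SD of log2 ratios among the sets of a gene was 0.39, which covers probe differences only.

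A ratio was available for 7480 genes. Of these, 6135 were measured on both arrays, 949 lay under the floor in the DCs only and 396 in the macrophages only. Those 949 could only come out higher and those 396 only lower. Over all 7480 genes, 453 (6.06%) were higher in the macrophages by 4-fold or more and 146 (1.95%) were lower by as much. Bounds made up 143 of these higher calls and 28 of the lower ones. Counted by probe set, 621 of 11378 (5.46%) were higher and 208 (1.83%) lower by 4-fold or more. At a limit of 2-fold the counts were 1299 (17.4%) higher and 761 (10.2%) lower, and the other 5420 genes (72.5%) lay within 2-fold. The median log2 ratio of all genes was 0.02, with quartiles of -0.53 and 0.63. Over the genes measured on both arrays the median was -0.06. Ratios of 16-fold or more were found for 62 genes that were higher and 14 that were lower. Called genes had 321 further probe sets with a ratio, of which 271 were at least 2-fold in the same direction and 0 at least 2-fold in the opposite one. For 84 genes named in the text that were at least 2-fold apart, another probe set also had a ratio. In 9 of them another set fell short of 2-fold when measured on both arrays, or went the other way, as given beside each. Bounds under 2-fold in the same direction, from dim sets, were not counted among these 9. The median signal over all probe sets was 109.7 on the macrophage array and 88.5 on the DC array, and 57.2% of genes reached the floor in the macrophages and 52.7% in the DCs. Scaling both arrays to equal medians turned the split of 4-fold calls, 453 higher and 146 lower, into 341 and 223, and lowered the median log2 ratio of all genes to -0.27. In each gene list below, counts are given at 2-fold, with the shares over all genes, 17.4% higher and 10.2% lower, for scale. The lists were chosen with earlier results of these data known, and no excess over these shares was tested. Their counts also include bounds, which can go only 1 way.

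**Figure D1:**
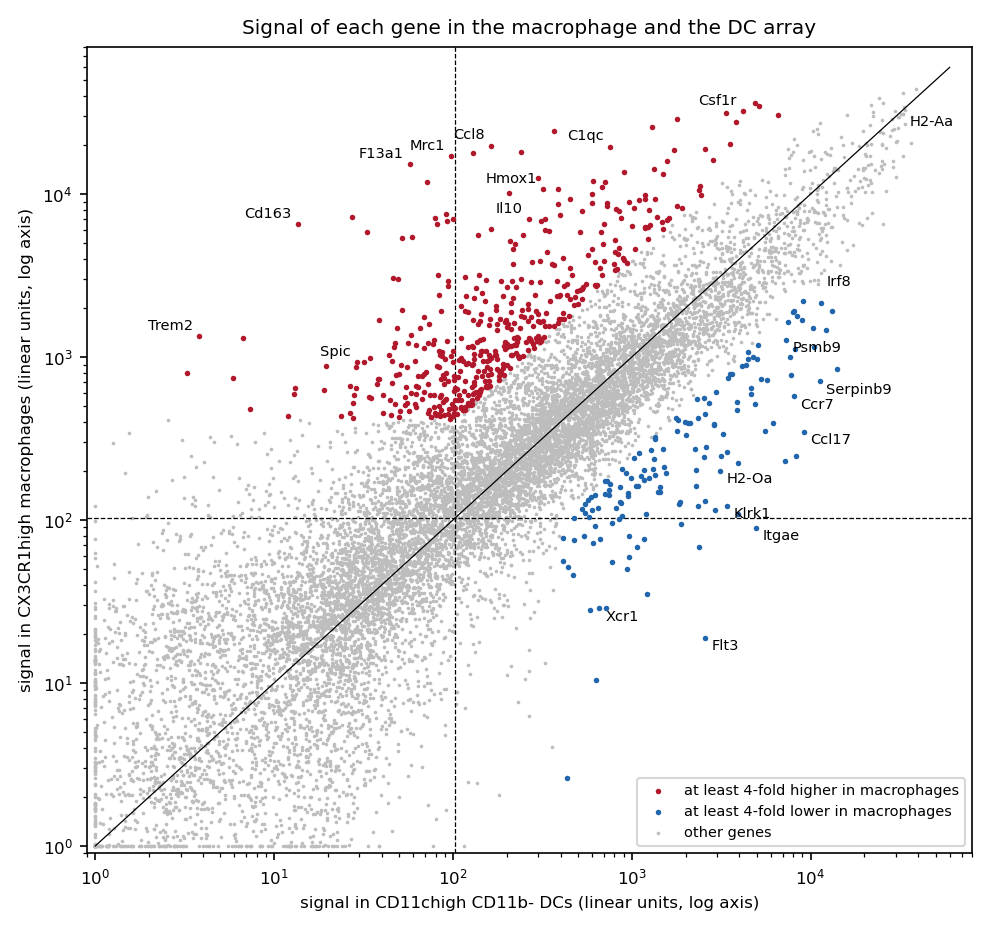
Signal of each of 12393 genes in the CX3CR1high macrophages (vertical, linear units on a log axis) against its signal in the CD11chigh CD11b- DCs (horizontal, same scale). Red points are the 453 genes at least 4-fold higher in the macrophages, blue points the 146 at least 4-fold lower, grey points the rest. The dashed lines mark the floor of 103 and the solid line marks equal signals. The red points reach farther from the line than the blue ones.

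The labels were set against the genes of the gate first, which are a check and not a finding. Cx3cr1 had a signal of 1499 in the macrophages and 65.2 in the DCs, and Itgam, which encodes CD11b, 691 in the macrophages and 45.9 in the DCs. Itgax, which encodes CD11c, stood at 1826 in the macrophages and 5893 in the DCs. Itgae, which encodes CD103, had 89.97 in the macrophages, under the floor, and 4962 in the DCs. All 4 genes lay on the side that the gates and the DC title give. Of 19 genes that mark gut macrophages, 17 were measured, 3 lay under the floor on both arrays (Cd5l, Maf and Siglec1) and the other 14 were all at least 2-fold higher in the macrophages. Of 16 marker genes of the CD103-type DC, 10 were at least 2-fold lower in the macrophages and 0 higher.

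Markers of other cells were also measured, since cells of a gate can carry RNA of their neighbours. The 14 epithelial markers summed to 30401 in the macrophages and 5045 in the DCs, and 11 of them were at least 2-fold higher in the macrophages. The colonocyte gene Car4, a carbonic anhydrase, had 3179.8 in the macrophages and 82.3 in the DCs, and Krt8, a keratin of simple epithelia, had 6182 in the macrophages and 1192 in the DCs. The 15 markers of fibroblasts, muscle and endothelium summed to 19179.5 in the macrophages and 6368 in the DCs, and 10 were at least 2-fold higher. The 1 member at least 2-fold lower was the endothelial gene Vwf (204 in the macrophages, 574 in the DCs). Of 9 neutrophil markers, 4 (Csf3r, Mmp9, S100a8 and S100a9) were at least 2-fold higher in the macrophages, while Camp, Cxcr2, Lcn2, Ltf and Ngp lay under the floor on both arrays. With the floor at the 75th percentile, 0 of these 4 reached 2-fold. Among B and plasma cell markers Jchain, the joining chain of secreted antibodies, had 18478 in the macrophages and 10118 in the DCs, and Cd79a, Ms4a1 and Pax5 were under the floor in both. Ighm, the heavy chain of IgM, was 2.34-fold higher (3266 in the macrophages, 1395 in the DCs), with log2 ratios of 0.25 to 2.40 from its other probe sets, and Cd79b, a chain of the B cell receptor, at least 2.57-fold higher. The T cell genes Cd3d, Cd3e and Cd3g, all 5 eosinophil markers, and 9 of 10 mast cell markers lay under the floor on both arrays. Most epithelial and stromal markers were thus higher in the macrophages. Among markers with a ratio, so were 4 of 4 neutrophil, 2 of 4 B and plasma cell, 2 of 3 lymphoid and 2 of 6 plasmacytoid DC markers. The lymphoid ones were Cd4 and Il7r, while Cd8a was at least 1.96-fold lower and 8 of 11 lay under the floor on both arrays. The plasmacytoid DC ones were Tcf4 and Klk1, while Ccr9 was at least 2.61-fold lower. The part of all these in the results below was not tested. In bulk samples such as these, fewer cells of a type and less RNA per cell cannot be told apart.

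**Figure D2:**
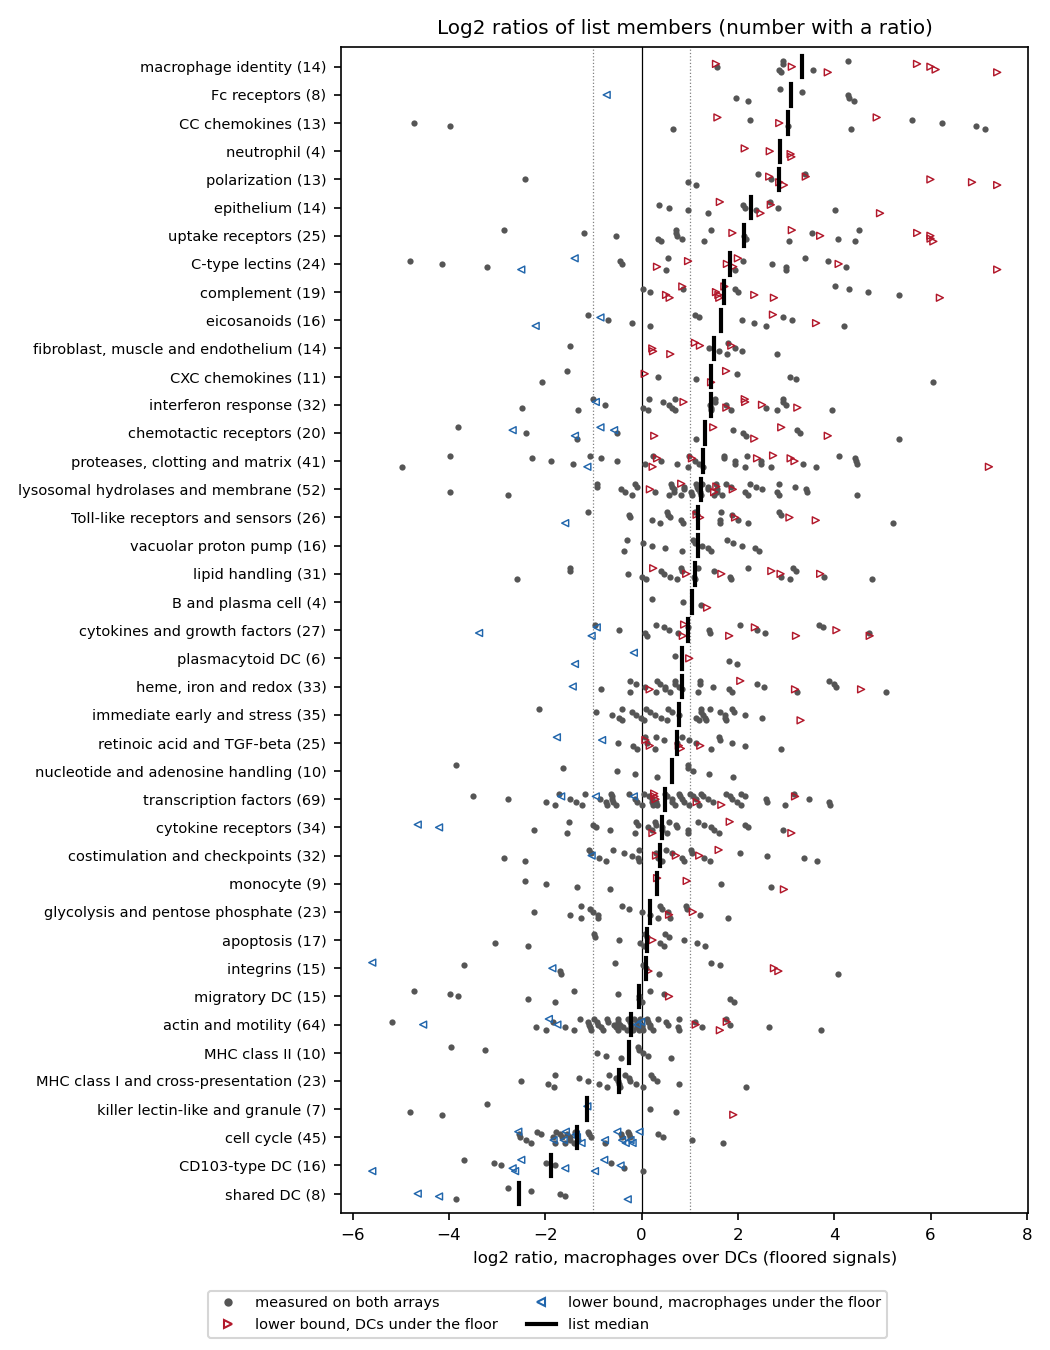
Log2 ratios of macrophages over DCs (horizontal) for the members of each gene list (rows, with the number of members that have a ratio). Grey dots are genes measured on both arrays, open triangles are lower bounds, black bars are list medians, and dotted lines mark 2-fold. Fc receptors and macrophage identity genes sit farthest to the right, and the shared and CD103-type DC genes and the cell cycle genes sit to the left.

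Transcription factors known from the macrophage and DC lineages were more often higher than lower in the macrophages. Of 78 measured members, 9 lay under the floor on both arrays, 25 were higher in the macrophages by 2-fold or more and 10 lower by as much (median log2 ratio 0.48, 69 with a ratio). With both arrays scaled to equal medians the split was 19 higher and 14 lower. Cebpb, a bZIP factor of myeloid and acute-phase genes, had a signal of 13589.7 in the macrophages and 908 in the DCs, a 14.97-fold difference, and its second probe set gave 17.5-fold. Cebpa, the related factor of the granulocyte and monocyte lineage, was 7.92-fold higher, and Cebpd, an inducible member of the family, 3.57-fold higher. Zeb2, a zinc-finger factor that tissue macrophages need to keep their identity, was 11.1-fold higher (1944 in the macrophages, 175 in the DCs). Ets2, an ETS factor downstream of the CSF1 receptor in macrophages, was 14.8-fold higher (8835 in the macrophages, 597 in the DCs). Prdm1, which encodes the repressor BLIMP1, was 9.02-fold higher, Hes1, a target of Notch, 6.06-fold higher, and Id3, an inhibitor of E proteins, 5.997-fold higher. Spic, the ETS factor named in the title of the series, was at least 9.10-fold higher (936 in the macrophages, 29.2 in the DCs). Among factors of the MITF family, which act on lysosomal genes, Mitf was 2.62-fold higher, Tfeb 2.27-fold higher and Tfec at least 2.21-fold higher.

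The factors lower in the macrophages included those that the DC lineage depends on. Hhex, a homeobox factor, had 202 in the macrophages and 2284 in the DCs and was 11.3-fold lower, the largest ratio of the list in that direction. Zbtb46, which marks classical DCs, had 118 in the macrophages and 813 in the DCs. Batf3 was 3.95-fold lower (325 in the macrophages, 1285 in the DCs), and Irf8 was 3.48-fold lower (3272 in the macrophages, 11382 in the DCs), with 5.11-fold from its second probe set. Mycl, the MYC family member of DCs, was at least 3.18-fold lower, Irf5, a factor of inflammatory cytokine genes, 2.79-fold lower, and Stat4, which carries the signal of interleukin 12, 2.35-fold lower. The second probe set of Irf5 was dimmer and gave a log2 ratio of -0.10. Not every DC factor differed by 2-fold. Id2, which blocks E proteins and which this DC lineage needs, had 8151 in the macrophages and 12648 in the DCs. Spi1, which encodes the myeloid master factor PU.1, had 2748 in the macrophages and 2374 in the DCs, and Relb, an NF-kB subunit of mature DCs, 1574 in the macrophages and 1556 in the DCs.

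Receptors for the growth factors of both lineages differed as well. Csf1r, the receptor that maintains macrophages, had 32267 in the macrophages and 4191 in the DCs, a 7.70-fold difference, and its other probe sets gave 17.5-fold and 22.2-fold. Flt3, whose ligand drives DC development, had 18.97 in the macrophages, under the floor, and 2579 in the DCs. Kit, the receptor of stem cell factor, had 94.6 in the macrophages and 1897 in the DCs. Of the receptor chains for the granulocyte-macrophage factor (GM-CSF), only the shared chain was beyond 2-fold. Csf2rb, the signalling chain shared by the receptors for GM-CSF, IL-3 and IL-5, was 4.69-fold lower (1788 in the macrophages, 8384 in the DCs). Its close copy Csf2rb2, specific to mouse IL-3, had 2685 in the macrophages and 2205 in the DCs. Csf2ra, the ligand-specific chain for GM-CSF, had 1186 in the macrophages and 2281 in the DCs, 1.92-fold lower. Its second probe set went the other way, with 500 in the macrophages and 403 in the DCs (log2 ratio 0.31). Csf3r, the receptor for the granulocyte factor and also 1 of the neutrophil markers above, was at least 8.63-fold higher.

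Among the remaining cytokine receptors the differences were smaller. Over the whole list, of 38 measured members, 4 lay under the floor on both arrays, 10 were higher in the macrophages by 2-fold or more and 6 lower by as much (median log2 ratio 0.42, 34 with a ratio). Tgfbr1 and Tgfbr2, the 2 chains of the TGF-beta receptor, were 4.44-fold higher (4635 in the macrophages, 1044 in the DCs) and 3.06-fold higher (5605 in the macrophages, 1831 in the DCs). Il10rb, a chain of the receptor for interleukin 10, was 2.71-fold higher, while Il10ra, its partner that binds the ligand, had 862 in the macrophages and 647 in the DCs. Il1r1, the signalling receptor for interleukin 1, was at least 3.55-fold higher. Il1r2, the decoy receptor that binds interleukin 1 without signalling, went the other way and was 2.94-fold lower (5069.8 in the macrophages, 14910.3 in the DCs). Ifngr1, the binding chain for interferon gamma, was 2.86-fold lower, whereas its partner Ifngr2 had 1003 in the macrophages and 1088 in the DCs.

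Cytokines and growth factors were more often higher than lower in the macrophages. Of 35 measured members, 8 lay under the floor on both arrays, 13 were higher in the macrophages by 2-fold or more and 2 lower by as much (median log2 ratio 0.95, 27 with a ratio). With equal medians the split was 13 higher and 4 lower. Igf1, insulin-like growth factor, had 1699 in the macrophages and 38.8 in the DCs, under the floor there. Hbegf, a ligand of the EGF receptor, had 2917 in the macrophages and 213 in the DCs, and Pdgfa, a growth factor for mesenchymal cells, 3916 in the macrophages and 307 in the DCs. Bmp2, a bone morphogenetic protein that gut macrophages pass to enteric neurons, was at least 9.23-fold higher. Il10, the anti-inflammatory cytokine, was 26.3-fold higher and Tnf, the classical inflammatory one, at least 26.6-fold higher. The 2 genes of interleukin 1 differed in their ratios. Il1a was 5.90-fold higher and the antagonist Il1rn 5.23-fold higher, while Il1b had 19111 in the macrophages and 26343 in the DCs. Il12b, whose product is part of both IL-12 and IL-23, was at least 10.4-fold lower (68.03 in the macrophages, under the floor, and 1066 in the DCs), with at least 3.60-fold from its second probe set. The partner subunit Il12a lay under the floor on both arrays, and the other partner, Il23a, had 61.1 in the macrophages and 196 in the DCs.

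Chemokines showed some of the largest ratios of the comparison, in both directions. Of the CC chemokines, 10 of 13 with a ratio were higher by 2-fold or more and 2 were lower (median log2 ratio 3.04), and 4 lay under the floor on both arrays. Ccl7, Ccl8, Ccl2 and Ccl12 draw monocytes and other cells through CCR2 and related receptors. Ccl7 had 17991 in the macrophages and 129 in the DCs, and Ccl8 19869 in the macrophages and 163 in the DCs. Ccl2 had 18214 in the macrophages and 242 in the DCs, and Ccl12 3031 in the macrophages and 49.6 in the DCs. These 4 genes lie in 1 cluster and are alike in sequence, so that shared hybridisation between their probe sets was not tested. Ccl3 and Ccl4, inflammatory chemokines, were 20.5-fold and 4.74-fold higher, and Ccl24, an eotaxin, was at least 7.25-fold higher. Ccl5, which draws T cells and monocytes, had 1513 in the macrophages and 967 in the DCs, within 2-fold. Ccl17 and Ccl22, the 2 ligands of CCR4 on regulatory and helper T cells, were the members lower in the macrophages. Ccl17 had 348 in the macrophages and 9138 in the DCs, and Ccl22 393 in the macrophages and 6194 in the DCs.

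CXC chemokines also stood on both sides. Of 13 measured members, 2 lay under the floor on both arrays, 7 were higher in the macrophages by 2-fold or more and 2 lower by as much (median log2 ratio 1.44, 11 with a ratio). Pf4, platelet factor 4, had 24576 in the macrophages and 369 in the DCs. Cxcl1 and Cxcl2, which draw neutrophils through CXCR2, were 8.42-fold and 9.28-fold higher, and Cxcl13, the B cell chemokine that binds CXCR5, was at least 3.38-fold higher. The 3 ligands of CXCR3, the receptor of effector T cells, did not share a direction. Cxcl9 was 4.19-fold lower (1923 in the macrophages, 8052 in the DCs) and Cxcl11 was 2.92-fold lower (104 in the macrophages, 302 in the DCs), while Cxcl10 was 2.18-fold higher (2805 in the macrophages, 1289.6 in the DCs).

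Receptors for these and other attractants were next. Of 26 measured members, 6 lay under the floor on both arrays, 11 were higher in the macrophages by 2-fold or more and 5 lower by as much (median log2 ratio 1.31, 20 with a ratio). C3ar1, the receptor for the complement fragment C3a, had 5610.2 in the macrophages and 138 in the DCs, and its second probe set gave at least 26.8-fold. Ccr1, a receptor for several CC chemokines, was 9.37-fold higher (8991 in the macrophages, 959.96 in the DCs), and Ccrl2, which binds chemerin without signalling, 9.72-fold higher. The formyl peptide receptor Fpr2, a sensor of bacteria, was at least 7.46-fold higher, and C5ar1, the receptor for the complement fragment C5a, at least 5.06-fold higher. P2ry12 and Gpr34, purinergic-type receptors best known from microglia, were 4.32-fold and 4.50-fold higher. On the DC side, Ccr7, the receptor that leads DCs into lymph, had 576 in the macrophages and 8091 in the DCs. Xcr1, the receptor of cross-presenting DCs for a chemokine of cytotoxic T cells, had 28.7 in the macrophages and 658 in the DCs, and Ccr9, a gut-homing receptor, 24.97 in the macrophages and 269 in the DCs. P2ry14, a receptor for UDP-sugars, was 5.25-fold lower, and Ccr2, the receptor by which monocytes leave the marrow, 2.52-fold lower, with log2 ratios of -0.82, a bound, and -0.83 from its dimmer probe sets.

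**Figure D3:**
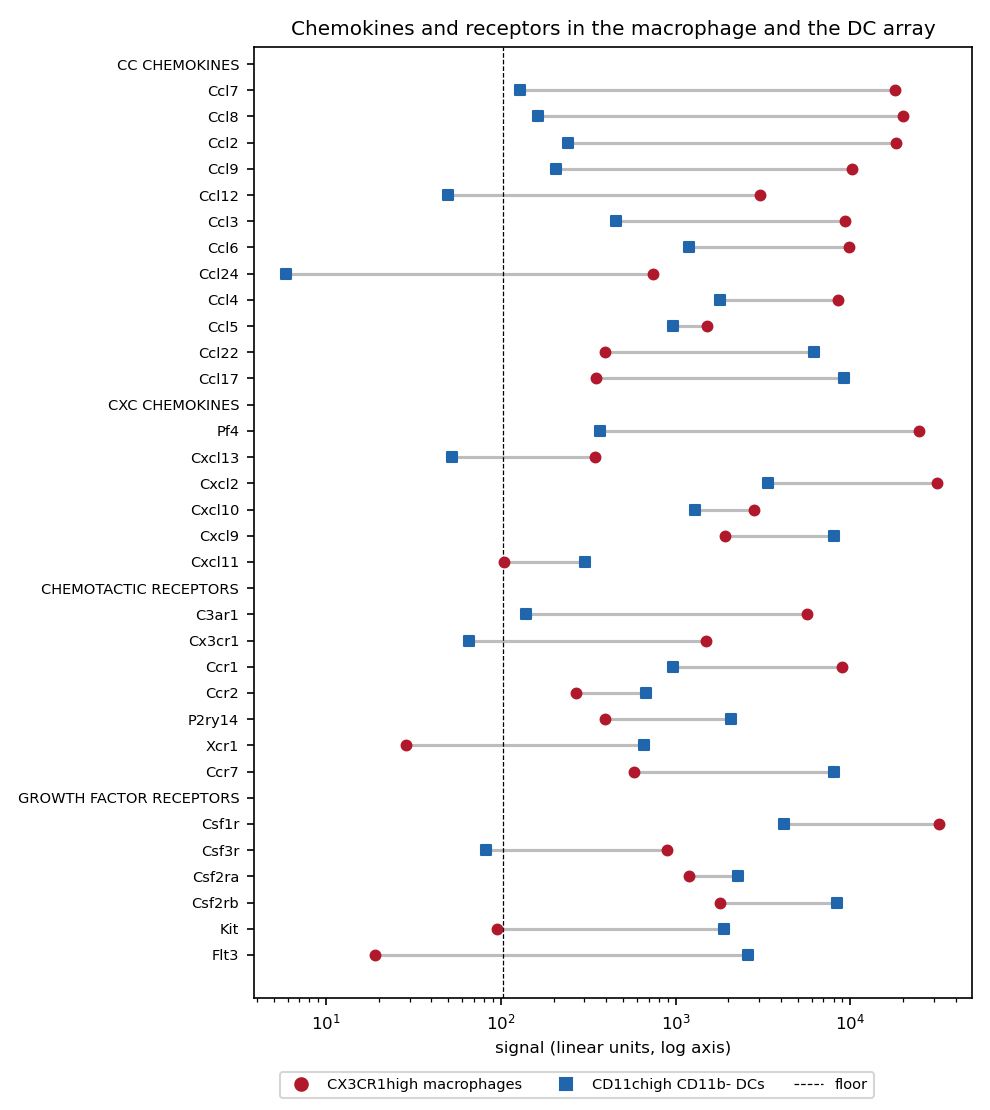
Signals of chemokines, chemotactic receptors and growth factor receptors (rows) in the CX3CR1high macrophages (red circles) and the CD11chigh CD11b- DCs (blue squares), in linear units on a log axis, with 1 array each. The dashed line is the floor of 103. Ccl7, Ccl8, Ccl2 and Pf4 lie far to the right in the macrophages, and Ccl17, Ccl22, Ccr7, Flt3 and Kit in the DCs.

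Genes for the uptake of particles and dying cells made up another broad group with higher signals in the macrophages. Of 33 measured members, 8 lay under the floor on both arrays, 16 were higher in the macrophages by 2-fold or more and 2 lower by as much (median log2 ratio 2.13, 25 with a ratio). Stab1, a scavenger receptor, had 6849 in the macrophages and 92.6 in the DCs. Mertk and Axl, receptor kinases that recognise dying cells, were at least 8.69-fold and 8.37-fold higher. Their bridging ligands Gas6 and Pros1 were at least 52.8-fold higher (5429 in the macrophages, 59.4 in the DCs) and 4.46-fold higher. Itgav and Itgb5, the chains of an integrin that binds dying cells through the bridge MFG-E8, were 2.73-fold and 16.9-fold higher, while Mfge8 itself had 476 in the macrophages and 289.8 in the DCs. Lrp1, a large endocytic receptor, was 11.7-fold higher, and the scavenger receptor Msr1 22.7-fold higher. Cd36, a receptor for oxidised lipids and thrombospondin, had 4876 in the macrophages and 2932 in the DCs by its brightest probe set, 1.66-fold higher, while the other sets gave 1.998-fold and 2.99-fold. Havcr2, which encodes TIM-3, a phosphatidylserine receptor and checkpoint of CD103-type DCs, was 7.27-fold lower (731 in the macrophages, 5316 in the DCs).

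C-type lectins, receptors for sugars on microbes and cells, stood on both sides. Of 32 measured members, 8 lay under the floor on both arrays, 13 were higher in the macrophages by 2-fold or more and 5 lower by as much (median log2 ratio 1.84, 24 with a ratio). Mrc1, the mannose receptor, had 17169 in the macrophages and 97.8 in the DCs. The Dectin-2 cluster was higher in the macrophages, with Clec4d 18.8-fold higher, Clec4n 7.98-fold higher, Clec4e 6.56-fold higher and the inhibitory Clec4a2 14.7-fold higher. The galactose-type lectins Clec10a and Mgl2 were 8.02-fold and 10.5-fold higher. Clec7a, which encodes Dectin-1, the receptor for fungal beta-glucan, had 9272 in the macrophages and 12246 in the DCs, within 2-fold. Ly75, which encodes the DC endocytic receptor DEC-205, had 28.1 in the macrophages and 581 in the DCs. The killer lectin-like receptors, best known from NK cells, stood apart from the rest of the list. Klrk1, which encodes NKG2D, had 122 in the macrophages and 3417 in the DCs. Klrd1, which encodes CD94, had 223 in the macrophages and 3933 in the DCs, and Klrb1b, a receptor of the NKR-P1 family, 279 in the macrophages and 2591 in the DCs. The NK and cytotoxic genes Ncr1, Nkg7, Prf1, Gzma and Gzmb lay under the floor on both arrays. Klra2, a Ly49 family receptor, was at least 3.74-fold higher.

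Receptors for antibody and complement were almost uniformly higher in the macrophages. Of 10 measured members, 2 lay under the floor on both arrays, 7 were higher in the macrophages by 2-fold or more and 0 lower by as much (median log2 ratio 3.11, 8 with a ratio). Fcgr1, an activating receptor for IgG, had 2989 in the macrophages and 152 in the DCs, and Fcgr4, another, 4587 in the macrophages and 217 in the DCs. Fcgr3 was 19.7-fold higher, the inhibitory receptor Fcgr2b 10.1-fold higher, with 10.5-fold to 15.7-fold from its other 3 probe sets, and their shared signalling chain Fcer1g 7.36-fold higher. Fcgrt, the neonatal receptor that recycles IgG, was 4.65-fold higher. Pigr, which carries IgA across epithelium, was 3.87-fold higher (882 in the macrophages, 228 in the DCs), beside the epithelial markers given above. Among complement genes, of 21 measured members, 2 lay under the floor on both arrays, 13 were higher in the macrophages by 2-fold or more and 0 lower by as much (median log2 ratio 1.72, 19 with a ratio). C1qa, C1qb and C1qc, the 3 chains of the recognition molecule C1q, were 16.2-fold, 19.8-fold and 25.9-fold higher. C1s1 and C1ra, the proteases of the C1 complex, which fibroblasts also make, were 4.02-fold and at least 3.02-fold higher. Cd93, once taken for a C1q receptor, had 7525 in the macrophages and 90.9 in the DCs, and Cfp, which encodes properdin, had 4386 in the macrophages and 2429 in the DCs.

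Genes of presentation on MHC class II lay mostly within 2-fold. Of 11 measured members, 1 lay under the floor on both arrays, 0 were higher in the macrophages by 2-fold or more and 2 lower by as much (median log2 ratio -0.25, 10 with a ratio). With equal medians 4 were lower. The chains of the class II molecules themselves were near equal. H2-Aa had 31256 in the macrophages and 33046 in the DCs, H2-Ab1 29086 in the macrophages and 28686 in the DCs, and the invariant chain Cd74 29845 in the macrophages and 31210.00 in the DCs. The highest signals on the arrays were 44238 in the macrophages and 38968 in the DCs, and saturation of these bright probe sets was not tested. The 2 members beyond 2-fold belong to the accessory molecules that load or edit peptides. H2-Oa, a chain of the inhibitor H2-O, had 201 in the macrophages and 3113 in the DCs and was 15.5-fold lower. H2-DMb2, a chain of the loading factor H2-M, had 338 in the macrophages and 3237 in the DCs, while its partner H2-DMa had 6176 in the macrophages and 11809.7 in the DCs.

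For MHC class I, several genes of peptide supply were lower in the macrophages while the presenting chains lay within 2-fold. Of 23 measured members, 1 was higher in the macrophages by 2-fold or more and 6 lower by as much (median log2 ratio -0.47, 23 with a ratio). Psmb8 and Psmb9 encode catalytic subunits of the immunoproteasome. They were 3.51-fold lower (2963 in the macrophages, 10416 in the DCs) and 5.70-fold lower (1282 in the macrophages, 7308 in the DCs). Psmb10, for another such subunit, lay within 2-fold, with 1693 in the macrophages and 2446 in the DCs. Psme1, a proteasome activator, was 3.50-fold lower. Tap1 and Tap2, the transporter that moves peptides into the endoplasmic reticulum, were 3.82-fold and 2.47-fold lower. The presenting chain H2-K1 had 24535 in the macrophages and 19751 in the DCs, and B2m 28692 in the macrophages and 25234 in the DCs. Cybb, the catalytic subunit of the phagocyte oxidase, was the 1 member of the list at least 2-fold higher in the macrophages (608 in the macrophages, 135 in the DCs), while its subunit Ncf1 was 2.16-fold lower.

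Costimulatory molecules and checkpoints stood on both sides. Of 33 measured members, 1 lay under the floor on both arrays, 10 were higher in the macrophages by 2-fold or more and 5 lower by as much (median log2 ratio 0.38, 32 with a ratio). With equal medians the split was 7 higher and 7 lower. Among the classical costimulators, Cd40 had 2343 in the macrophages and 2426 in the DCs, and Cd86 5348 in the macrophages and 5605 in the DCs. Cd80 had 845 in the macrophages and 1559.8 in the DCs, 1.85-fold lower, and 2 of its other probe sets gave 2.22-fold and 3.54-fold lower. Inhibitory molecules differed in direction. Vsir, which encodes the checkpoint VISTA, was 12.5-fold higher (2994 in the macrophages, 239.7 in the DCs), and Sirpa, the receptor that checks uptake on binding CD47, was 10.4-fold higher (3724 in the macrophages, 359 in the DCs). Its ligand Cd47 was 2.13-fold lower by its brightest probe set, and 1.38-fold and 1.27-fold lower by its other measured sets. Pdcd1lg2, which encodes PD-L2, was 5.36-fold lower (160.2 in the macrophages, 859 in the DCs), while Cd274, which encodes PD-L1, had 3659.96 in the macrophages and 2370.5 in the DCs.

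Sensors of microbial products, listed with their adaptors, effectors and regulators, were more often higher than lower in the macrophages. Of 30 measured members, 4 lay under the floor on both arrays, 15 were higher in the macrophages by 2-fold or more and 2 lower by as much (median log2 ratio 1.18, 26 with a ratio). Tlr2 and its partner Tlr1, which bind bacterial lipopeptides, were 37.3-fold higher (6086 in the macrophages, 163 in the DCs) and at least 12.3-fold higher. For lipopolysaccharide, Tlr4 was at least 3.84-fold higher, Ly96, its co-receptor MD-2, 3.66-fold higher, and Cd14 7.20-fold higher. Of the sensors of RNA, Tlr7 was at least 8.40-fold higher and Ifih1, which encodes MDA5, 4.62-fold higher, while Tlr3, the endosomal sensor of double-stranded RNA in cross-presenting DCs, was at least 3.003-fold lower (84.9 in the macrophages, under the floor, and 309 in the DCs). The sensors Tlr8, Tlr9 and Aim2 lay under the floor on both arrays. The adaptor Myd88 lay within 2-fold, with 1347 in the macrophages and 1615 in the DCs, and the adaptor Tirap was 2.15-fold lower. Nlrp3 and Casp1, of the inflammasome, were 3.99-fold and 3.11-fold higher, and its adaptor Pycard had 1995 in the macrophages and 1542 in the DCs.

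Lysosomal genes were examined together with their promoters, since many carry the CLEAR motif, the letters bound by TFEB and the other MITF-family factors listed above. RefSeq windows of 300 bases (250 before and 50 after the start of the transcript, GRCm38.p6) were searched for GTCACGTG on both strands. The motif was 1 of 15 searched and was chosen with the array values known. It stood in 431 of 12566 windows of genes on the array (3.43%), in 10 of 56 windows of the lysosomal list (17.9%) and in 2 of 13 windows of the proton pump list (15.4%). Among genes with a ratio it stood in 351 of 7913 windows (4.44%), among those at least 4-fold higher in the macrophages in 21 of 486 windows (4.32%), and among those at least 4-fold lower in 3 of 149 (2.01%). A match is a description of the letters and not a site in use. Stretches of 130 bases from 5 lysosomal promoters are shown 5' to 3' to let the motif be seen in place, with the matching letters in capitals. They are Ctsd (chr7:142387828-142387957, minus strand), Lgmn (chr12:102439093-102439222, minus strand), Ctsa (chr2:164833643-164833772, plus strand), Lamp1 (chr8:13159031-13159160, plus strand) and Mcoln1 (chr8:3500389-3500518, plus strand).
Ctsd: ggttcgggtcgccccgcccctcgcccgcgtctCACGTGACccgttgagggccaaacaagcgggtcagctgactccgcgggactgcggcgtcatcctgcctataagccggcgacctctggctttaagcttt
Lgmn: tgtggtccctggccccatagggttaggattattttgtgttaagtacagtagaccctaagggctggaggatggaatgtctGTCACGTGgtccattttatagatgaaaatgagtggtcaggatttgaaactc
Ctsa: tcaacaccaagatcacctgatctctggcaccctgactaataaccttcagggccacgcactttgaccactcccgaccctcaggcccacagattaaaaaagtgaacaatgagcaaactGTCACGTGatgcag
Lamp1: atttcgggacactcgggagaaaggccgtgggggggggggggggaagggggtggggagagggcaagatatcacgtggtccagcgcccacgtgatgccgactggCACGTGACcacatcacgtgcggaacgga
Mcoln1: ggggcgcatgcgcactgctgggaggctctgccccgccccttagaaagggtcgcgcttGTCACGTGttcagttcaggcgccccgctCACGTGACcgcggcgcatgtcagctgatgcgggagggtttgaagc

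The 10 lysosomal genes with the motif all had log2 ratios above 0, from 0.68 for Cln3, a membrane protein of lysosomes, to 4.48 for Ctsd, where the list as a whole had a median of 1.23. The other 8 were Lgmn, Ctsa, Lamp1, Mcoln1, Sgsh, Gla, Glb1 and Naglu. Ctsd, an aspartyl protease, had 8692 in the macrophages and 389 in the DCs, and Lgmn, a protease that cuts after asparagine, 14317 in the macrophages and 1330.2 in the DCs. Ctsa, a protective protease of the sialidase complex, was 6.98-fold higher, the membrane glycoprotein Lamp1 5.68-fold higher, and the calcium channel Mcoln1 2.84-fold higher. Over the whole list, of 53 measured members, 1 lay under the floor on both arrays, 32 were higher in the macrophages by 2-fold or more and 2 lower by as much (median log2 ratio 1.23, 52 with a ratio). Ctsl and Ctsb, cysteine proteases, were 10.7-fold and 4.64-fold higher, with 7.32-fold to 18.8-fold from the other 3 probe sets of Ctsb. Npc1, which exports cholesterol from the lysosome, was 7.19-fold higher, while its partner Npc2 had 18088 in the macrophages and 12111 in the DCs. The proteases tied most closely to antigen processing lay within 2-fold, Ctss with 22509 in the macrophages and 14758 in the DCs and Ctsh with 9893 in the macrophages and 6389 in the DCs.

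Only 2 members of the lysosomal list were at least 2-fold lower in the macrophages. Napsa, an aspartyl protease related to Ctsd, had 352 in the macrophages and 5582 in the DCs and was 15.9-fold lower. Ppt1, which strips fatty acids from proteins, had 1506 in the macrophages and 10267 in the DCs and was 6.82-fold lower, with 8.88-fold from its second probe set. Its homolog Ppt2 was 2.33-fold higher. The subunits of the vacuolar proton pump, which acidifies the lysosome, were also more often higher than lower. Of 16 measured members, 10 were higher in the macrophages by 2-fold or more and 0 lower by as much (median log2 ratio 1.17, 16 with a ratio). Atp6v1a, the catalytic subunit, had 6328 in the macrophages and 1241 in the DCs. The membrane subunits differed among themselves, with Atp6v0a1 5.40-fold higher and Tcirg1, the a3 subunit, 4.23-fold higher, while Atp6v0a2 had 219.8 in the macrophages and 282 in the DCs, with at least 2.01-fold lower from a dimmer probe set.

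Genes of lipid handling were more often higher than lower in the macrophages. Of 32 measured members, 1 lay under the floor on both arrays, 17 were higher in the macrophages by 2-fold or more and 3 lower by as much (median log2 ratio 1.11, 31 with a ratio). Abca1 and Abcg1, the exporters of cholesterol, were 27.6-fold and 2.85-fold higher, and Nr1h3, the sterol-sensing receptor that controls both, at least 3.15-fold higher. Abca1 was judged from the brightest of 3 probe sets, and the 2 dim ones gave at least 2.49-fold and at least 1.14-fold. Mylip, a target of that receptor that degrades the LDL receptor, was 3.56-fold higher. Plin2, a coat protein of lipid droplets, was 4.65-fold higher, and Lpl, lipoprotein lipase, 8.89-fold higher. The desaturases Scd1 and Scd2 were 6.02-fold lower (187 in the macrophages, 1126 in the DCs) and 2.79-fold lower. Srebf2, the factor of cholesterol synthesis, was 2.81-fold lower by its brighter probe set, but the dimmer one gave a log2 ratio of 0.20 (259 in the macrophages, 226 in the DCs). Its relative Srebf1 had 694 in the macrophages and 656 in the DCs.

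Among eicosanoid genes, enzymes of prostaglandin turnover stood out in the macrophages. Of 27 measured members, 11 lay under the floor on both arrays, 10 were higher in the macrophages by 2-fold or more and 2 lower by as much (median log2 ratio 1.64, 16 with a ratio). With equal medians the split was 8 higher and 4 lower. Hpgd, which inactivates prostaglandins, had 2059 in the macrophages and 111 in the DCs. Hpgds, which makes prostaglandin D2, was 7.67-fold higher, the inducible cyclooxygenase Ptgs2 4.26-fold higher and the leukotriene C4 synthase Ltc4s 5.03-fold higher. Alox5ap, which serves the first step of leukotriene synthesis, was 2.15-fold lower, and Ptger2, a receptor for prostaglandin E2, at least 4.59-fold lower (102 in the macrophages, under the floor, and 473 in the DCs). The other main receptor for it, Ptger4, had 3212 in the macrophages and 3668 in the DCs.

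Heme and iron genes were higher in the macrophages at several steps. Of 41 measured members, 8 lay under the floor on both arrays, 16 were higher in the macrophages by 2-fold or more and 1 lower by as much (median log2 ratio 0.84, 33 with a ratio). Hmox1, which opens the heme ring, had 10772 in the macrophages and 319 in the DCs, and Blvrb, a biliverdin reductase, 2947 in the macrophages and 186 in the DCs. Slc40a1, the iron exporter ferroportin, had 2422 in the macrophages and 83.3 in the DCs, and Cp, the oxidase that readies exported iron for transferrin, was 16.5-fold higher. The metal transporters Slc11a1 and Slc11a2 were 9.38-fold and 5.28-fold higher. The storage subunit Fth1 had 39180.1 in the macrophages and 24069.8 in the DCs. Hamp, which encodes hepcidin, the hormone that degrades ferroportin, was at least 2.69-fold lower (47.5 in the macrophages, under the floor, and 277 in the DCs). Over the genes of retinoic acid and TGF-beta, of 38 measured members, 13 lay under the floor on both arrays, 8 were higher in the macrophages by 2-fold or more and 1 lower by as much (median log2 ratio 0.73, 25 with a ratio). With equal medians the split was 7 higher and 2 lower. Dhrs3, which turns retinal back into retinol, was 7.39-fold higher, and Rdh10, a retinol dehydrogenase, 3.11-fold higher. The 2 retinal dehydrogenases measured above the floor stood on opposite sides, with Aldh1a2, the enzyme of retinoic acid synthesis in CD103+ DCs, at least 3.38-fold lower (99.4 in the macrophages, 348 in the DCs) and Aldh1a1 at least 2.33-fold higher.

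Serpins, matrix proteases and adhesion molecules included pairs of relatives with opposite ratios. Over proteases, clotting and matrix genes, of 45 measured members, 4 lay under the floor on both arrays, 24 were higher in the macrophages by 2-fold or more and 7 lower by as much (median log2 ratio 1.27, 41 with a ratio). Serpinb6a, an inhibitor of cathepsin G, had 6823 in the macrophages and 313 in the DCs, 21.8-fold higher. Its neighbour and relative Serpinb6b had 229 in the macrophages and 7224 in the DCs, 31.5-fold lower. Serpinb9, which blocks granzyme B, had 713 in the macrophages and 11285 in the DCs. The clotting factor chain F13a1 had 15238 in the macrophages and 57.4 in the DCs. Mmp13 and Mmp14, collagenases of macrophages and fibroblasts, were 12.2-fold and 10.2-fold higher, and their inhibitor Timp2 17.2-fold higher. Adam8 and Adam19, membrane proteases, were 3.70-fold and 2.70-fold lower, while Adam9 and Adam17 were 3.28-fold and 2.15-fold higher, with log2 ratios of 0.72 and 0.75 from the other probe sets of Adam17. Fibroblasts also express many genes of this list, and the fibroblast markers Col1a2 and Dcn were 3.82-fold and 3.41-fold higher.

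Integrins outside the gate differed by chain. Itgb7, the partner of CD103, had 262 in the macrophages and 3397 in the DCs and was 12.97-fold lower. Itga4, the other partner of Itgb7 and part of a gut-homing receptor, was at least 3.61-fold lower. Itga9, a receptor for tenascin, and Itgb5 were at least 7.16-fold and 16.9-fold higher, and Itgb2, the beta chain shared by CD11b and CD11c, had 8877 in the macrophages and 8699 in the DCs. Genes of the actin skeleton leaned to the DCs. Of 65 measured members, 1 lay under the floor on both arrays, 9 were higher in the macrophages by 2-fold or more and 14 lower by as much (median log2 ratio -0.22, 64 with a ratio). With equal medians the split was 7 higher and 21 lower. Scin, which severs actin filaments, had 109 in the macrophages and 3938 in the DCs, the largest measured ratio of all genes in that direction. Septin6, a filament-forming GTPase, had 68.6 in the macrophages and 2385 in the DCs. Coro1a, an actin regulator of leukocytes, was 3.97-fold lower, Actn1, an actin cross-linker, 4.58-fold lower, and Fscn1, the bundling protein of mature DC dendrites, 2.63-fold lower, with a log2 ratio of -0.29 from its dimmer probe set. Rhob, a GTPase of endosomes, was 13.2-fold higher, and Capg, a capping protein, 6.24-fold higher. Actb itself had 30878 in the macrophages and 32102 in the DCs.

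Further markers of CD103-type DCs, and markers shared by DCs, were also lower in the macrophages. Cd24a, a surface glycoprotein used to mark CD103-type DCs, had 1469 in the macrophages and 12281 in the DCs. The log2 ratios of its other probe sets were -2.75 and -3.46. It was not particular to these DCs, with 9830 in the CX3CR1- cells. Naaa, an acid amidase, was 7.61-fold lower, and Gcsam, a signalling adaptor first found in germinal centre B cells, at least 6.18-fold lower (10.4 in the macrophages, 635 in the DCs). Among the markers shared by DCs, Dpp4, which encodes CD26, was 14.4-fold lower, and Kmo, an enzyme of tryptophan breakdown, 4.89-fold lower. In the CX3CR1- cells these 2 had 759 and 381. The CD103-type markers that did not reach 2-fold included Rab7b, a small GTPase of late endosomes, with 7357 in the macrophages and 7192 in the DCs. Cadm1, an adhesion molecule, had 1231 in the macrophages and 1584 in the DCs, with log2 ratios of -0.51 to -1.22 from its dimmer probe sets. The others were Id2, given above, and Snx22, Clnk and Cd8a, whose bounds stayed under 2-fold. Cd8a, a coreceptor that DCs of this lineage carry in lymphoid organs, had 11.1 in the macrophages and 201 in the DCs. Genes of maturing, migratory DCs were divided. Of 16 measured members, 1 lay under the floor on both arrays, 2 were higher in the macrophages by 2-fold or more and 6 lower by as much (median log2 ratio -0.06, 15 with a ratio). The lower members were Ccr7, Ccl17, Ccl22 and Fscn1, given above, Traf1, a signalling adaptor, 5.13-fold lower, and Samsn1, another adaptor, 3.47-fold lower. The higher members were Anxa3, an annexin, 3.77-fold higher, and Marcksl1, an actin regulator, 3.56-fold higher. Cd83 had 19995 in the macrophages and 20826 in the DCs.

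Interferon-induced genes were examined with their promoters in the same way as lysosomal genes, here for 2 copies of GAAA with any 2 bases between them, on both strands, the core of the interferon-stimulated response element (ISRE). The letters stood in 394 of 12566 windows of genes on the array (3.14%), in 15 of 28 windows of the interferon list (53.6%) and in 5 of 20 windows of the MHC class I list (25%). Among genes with a ratio they stood in 264 of 7913 windows (3.34%), among those at least 4-fold higher in the macrophages in 31 of 486 windows (6.38%), and among those at least 4-fold lower in 3 of 149 (2.01%). Of the 14 genes of the interferon list with the letters, 13 had a ratio, of which 8 were higher by 2-fold or more, 0 lower and 5 within 2-fold. The ratios within 2-fold were log2 -0.95 for Stat2, a factor of interferon signalling, -0.75 for Ifitm2, 0.04 for Ifitm3, 0.13 for Trim30a and 0.69 for Bst2. Stretches of 130 bases are shown for 4 of the 8 higher genes, with the matching letters in capitals. They are Ifit1 (chr19:34640759-34640888, plus strand), Rsad2 (chr12:26456453-26456582, minus strand), Oas1a (chr5:120907526-120907655, minus strand), where 2 matches overlap, and Gbp2 (chr3:142620533-142620662, plus strand).
Ifit1: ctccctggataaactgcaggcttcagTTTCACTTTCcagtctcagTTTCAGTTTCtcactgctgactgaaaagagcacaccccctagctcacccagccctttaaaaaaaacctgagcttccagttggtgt
Rsad2: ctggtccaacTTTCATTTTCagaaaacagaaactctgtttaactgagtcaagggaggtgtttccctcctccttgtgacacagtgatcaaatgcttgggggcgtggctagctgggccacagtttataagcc
Oas1a: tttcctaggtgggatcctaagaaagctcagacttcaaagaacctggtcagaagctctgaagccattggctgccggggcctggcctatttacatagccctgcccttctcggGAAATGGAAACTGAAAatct
Gbp2: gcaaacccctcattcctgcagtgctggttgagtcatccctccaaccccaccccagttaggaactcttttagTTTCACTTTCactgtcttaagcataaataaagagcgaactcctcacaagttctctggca

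Most interferon-induced genes had higher signals in the macrophages. Of 34 measured members, 2 lay under the floor on both arrays, 18 were higher in the macrophages by 2-fold or more and 3 lower by as much (median log2 ratio 1.44, 32 with a ratio). Ifit1, which binds foreign RNA, had 968 in the macrophages and 90.7 in the DCs, and Rsad2, an antiviral radical enzyme, 4633 in the macrophages and 603 in the DCs. Oas1a, which makes the messenger that activates RNase L, was 8.02-fold higher, and Gbp2, a guanylate-binding protein, 2.71-fold higher. The short membrane proteins of the IFITM family did not follow. Ifitm3 had 11357 in the macrophages and 11072 in the DCs, Ifitm1 was 2.51-fold lower and Ifitm6 5.56-fold lower. In the MHC class I list the 5 genes with the letters were Cybb, B2m, Erap1, Ncf1 and Psme1, with log2 ratios of 2.17, 0.19, -0.48, -1.11 and -1.81.

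Cell cycle genes were more often lower than higher in the macrophages. Of 48 measured members, 3 lay under the floor on both arrays, 2 were higher in the macrophages by 2-fold or more and 28 lower by as much (median log2 ratio -1.34, 45 with a ratio). Rrm2, a subunit of ribonucleotide reductase, had 71.8 in the macrophages, under the floor, and 607 in the DCs, and Top2a, a topoisomerase of dividing cells, 258 in the macrophages and 1098 in the DCs. Birc5 and Ccnb2, of mitosis, were 4.48-fold and 3.46-fold lower, and Mcm6 and Mcm5, of the replicative helicase, 3.44-fold and at least 2.98-fold lower. Ccnd3, a cyclin that leads into division, was 5.85-fold lower. Mki67, a common label of dividing cells, did not reach 2-fold, with 978 in the macrophages and 1299 in the DCs, and neither did Pcna, with 9199 in the macrophages and 10933 in the DCs. Cdkn1a, the inhibitor p21, was 2.08-fold higher (11942 in the macrophages, 5747 in the DCs), whereas Cdkn1b, the inhibitor p27, was 2.18-fold lower.

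Genes that respond within minutes to stress or to handling of cells were also higher in part. Of 37 measured members, 2 lay under the floor on both arrays, 17 were higher in the macrophages by 2-fold or more and 1 lower by as much (median log2 ratio 0.78, 35 with a ratio). Fosl1, a partner of Jun, was at least 9.85-fold higher, Atf3 4.42-fold higher, Jun 3.80-fold higher and the heat-shock gene Hspa1a 2.51-fold higher, while Fos had 19104 in the macrophages and 13078 in the DCs and Junb 4489 in the macrophages and 4349.7 in the DCs. These values stand beside those of Tnf, Ccl3, Ccl4, Cxcl1 and Cxcl2 above, which are also induced quickly, and their part in those ratios was not tested. The letters TGANTCA, the core of the AP-1 site that Fos and Jun bind, were searched as well. They stood in 54 of 486 windows (11.1%) of genes at least 4-fold higher and in 11 of 149 (7.38%) of those at least 4-fold lower. The shares were 810 of 12566 (6.45%) for all windows and 455 of 7913 (5.75%) for genes with a ratio. In the list of early and stress genes itself only 1 of 36 windows (2.78%) held them, against 8 of 28 (28.6%) in the interferon list.

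Across all genes, the largest ratios were followed into the other 2 arrays. Those 2 arrays differed in the 3' to 5' signal ratio of control genes, a measure of RNA quality. For Gapdh it was 1.08 in the macrophages, 0.79 in the DCs, 3.40 in the CX3CR1- cells and 2.17 in the CD11c- CD11b+ cells. For Actb it was 1.68, 1.11, 2.76 and 3.18 in the same order. The part of this in the ranks below was not tested. The 12 largest measured ratios and 12 largest bounds in each direction were taken, passing over unnamed transcripts and genes with another probe set at least 2-fold in the opposite direction. Of the 24 genes higher in the macrophages, 22 had their highest signal of all 4 arrays there. The 2 exceptions were Ccl9, a chemokine, highest in the CD11c- CD11b+ cells, and Retnla, a resistin-like protein of alternatively activated macrophages, highest in the CX3CR1- cells. Retnla had 11955 in the macrophages, 71.9 in the DCs, 27748 in the CX3CR1- cells and 13508 in the CD11c- CD11b+ cells. Of the 24 genes lower in the macrophages, 23 had their highest signal in the DCs, and Kit had 1897 there and 1917 in the CX3CR1- cells. Ccl17 had 9138 in the DCs against 8559.5 in the CX3CR1- cells, and Ccl22 had 6194 in the DCs against 15935 in the CX3CR1- cells. Xcr1 and Itgae differed more, with 658 and 4962 in the DCs against 42.1 and 374 in the CX3CR1- cells. Over all called genes, 356 of the 453 higher ones (78.6%) had their highest signal in the macrophages and 136 of the 146 lower ones (93.2%) in the DCs. The called genes and the largest ratios were chosen by these same macrophage and DC signals, which favours such ranks in advance. The counts are therefore a description only.

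Several of these largest ratios fall outside the groups above. Pmp22, a membrane protein best known from myelin, had 12647 in the macrophages and 299.99 in the DCs. Cbr2, a carbonyl reductase, had 7276 in the macrophages and 27.4 in the DCs, and Saa1, a serum amyloid A protein that gut epithelium also makes, 7125 in the macrophages and 79.9 in the DCs. Folr2, a folate receptor of tissue macrophages, had 7079 in the macrophages and 100.3 in the DCs. In the other direction, Plet1, a surface protein, had 248 in the macrophages and 8253 in the DCs, but its second probe set gave a log2 ratio of 0.31, against -5.06 for the first, at signals of 127 in the macrophages and 88.9 in the DCs. Hepacam2, an immunoglobulin-type adhesion molecule, had 116 in the macrophages and 2925 in the DCs. Lsp1, a leukocyte actin-binding protein, had 847 in the macrophages and 14101 in the DCs, and Qpct, which cyclises the ends of peptides, 122 in the macrophages and 2345 in the DCs. Cldn1, a tight-junction protein that DCs use when they reach between epithelial cells, had 59.05 in the macrophages and 961 in the DCs, and 2 of its 4 probe sets lay under the floor on both arrays.

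**Figure D4:**
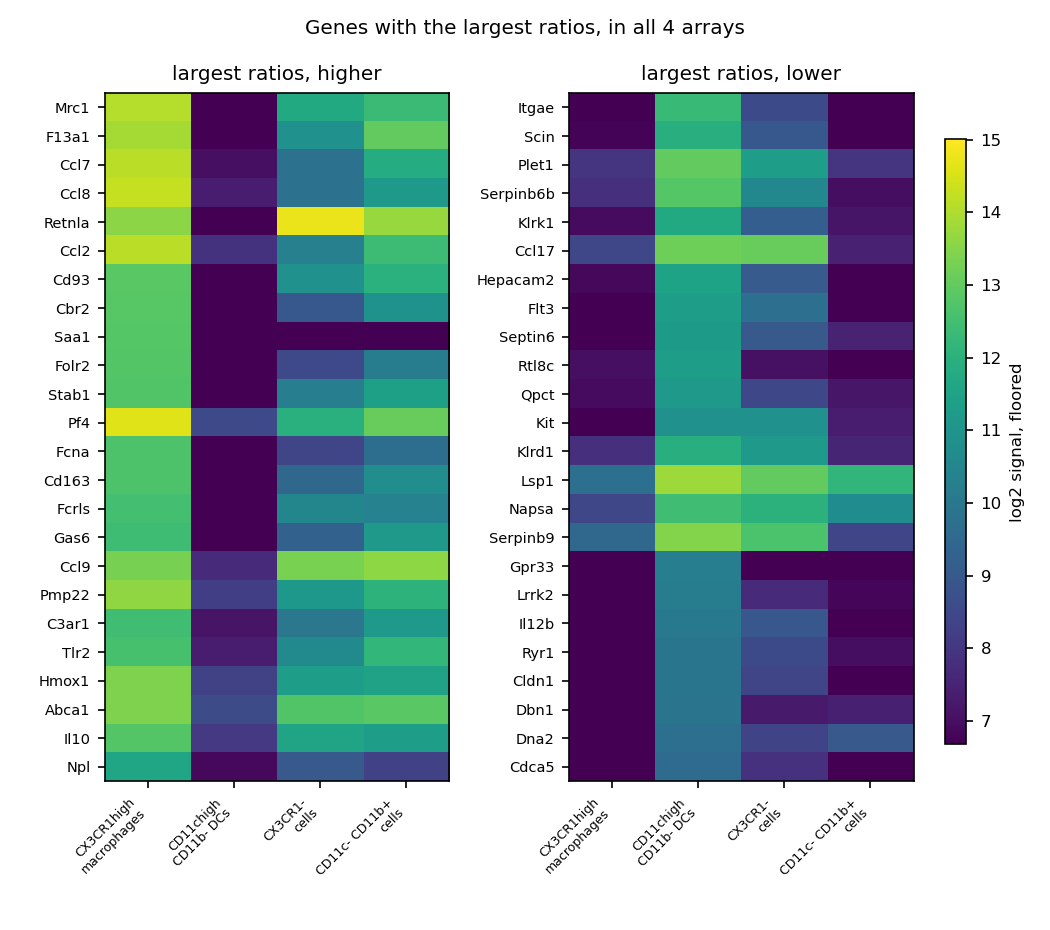
Log2 signals, with signals under the floor set to it, of the 24 genes with the largest ratios in each direction (rows; left panel higher in the macrophages, right panel lower). Columns are the CX3CR1high macrophages, the CD11chigh CD11b- DCs, the CX3CR1- cells and the CD11c- CD11b+ cells, 1 array each. In 22 of 24 rows on the left the first column is the highest, and in 23 of 24 rows on the right the second one is.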

How the data were processed

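Total RNA was labelled with biotin and read on Affymetrix 3' arrays, 1 for each population, per the labels' protocols. The authors summarised each probe set as an intensity on a linear scale with MAS5 (version not given in the sources used here), per the submitters' processing notes. Both arrays had a mean near 500 after trimming 2% at each end. No further normalization was applied. Of 22690 probe sets, 64 were controls, 691 named several genes and 1555 none. A gene was read from its brightest single-gene probe set (mean log2 over the 4 arrays), with sets ending in _x_at taken last. Ratios were taken on signals floored at the pooled median and called at 4-fold over all genes and at 2-fold in lists.

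Genes are named by rule: gate genes, Spic, members of 46 lists holding 1124 genes (145 with no probe set naming them alone), and the 12 largest measured ratios and bounds in each direction. The members, lists and motifs were chosen with earlier results of these data known. The number of arrays limits the precision, and no test was possible. The procedure was tested on simulated data (Python 3.11.15, pandas 2.3.3). Changes were simulated only in genes well above the floor, with noise of the size of the probe-set SD. The spread between arrays or animals was outside that simulation, and bounds largely so. Promoter windows came from RefSeq (GRCm38.p6), matched by symbol, for 9887 genes. Alternatives were 2 other floors, no floor, a pseudocount, quantile normalization, equal medians, means over probe sets, and no shared probe sets.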

Additional observations from a re-analysis of the deposited data

How the results depend on the processing

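With 1 array for each population no replicate could be left out. No paired analysis was possible because each population has 1 array. The 453 higher and 146 lower genes stayed within 1.5 times their number with a pseudocount (583 and 179), quantile normalization (402 and 158), means over probe sets (374 and 126) and no shared probe sets (360 and 113). They numbered 763 and 227 on lowering the floor to the 25th percentile, 178 and 74 on raising it to the 75th, and 1368 and 680 with no floor, since the floor sets which dim genes can pass. With equal medians they numbered 341 and 223, so that 60.5% of calls were higher, against 75.6% here. The median log2 ratio of all genes was -0.10 after quantile normalization. Plet1 had 0.31 without shared probe sets, against -5.06. Medians of some short lists changed sign. T, NK and innate lymphoid genes gave -0.053 with the 25th percentile floor or no floor and -0.041 with the pseudocount, mast cell genes -0.80 with no floor and -0.12 with the pseudocount, and gate genes -0.54 with the 75th percentile floor. Equal medians turned integrins to -0.22, apoptosis to -0.19 and glycolysis to -0.13, and the monocyte list became -0.58 at the 75th percentile floor and -0.66 with means over probe sets. Glycolysis was also below 0 at that floor (-0.34), and integrins without shared probe sets (-0.25). Causes were not tested.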

Other observations

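Glycolysis enzymes did not share a direction, even at the same step. Of 25 measured members, 2 lay under the floor on both arrays, 3 were higher in the macrophages by 2-fold or more and 6 lower by as much (median log2 ratio 0.18, 23 with a ratio), a median that falls below 0 with equal medians, where 1 was higher and 8 lower. Pfkp, the platelet form of phosphofructokinase, had 1005 in the macrophages and 4749.9 in the DCs, while its relative Pfkm was at least 2.09-fold higher. Pgk1 and Ldha, which act late in the pathway, were 2.40-fold and 2.11-fold lower, while Pkm had 2269 in the macrophages and 1797 in the DCs. Pfkfb3, which makes the activator of phosphofructokinase, was 3.45-fold higher. Among nucleotide genes, the deoxycytidine kinase Dck was 3.10-fold lower and the UDP receptor P2ry6 3.70-fold higher. Among apoptosis genes, Casp6, an executioner caspase, had 272 in the macrophages and 2245 in the DCs, and Cflar, which blocks caspase 8, was 2.50-fold higher by its brightest probe set, with log2 ratios of -0.02 to 0.68 from the others. Mcl1, which keeps myeloid cells alive, had 13822 in the macrophages and 13431 in the DCs.

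Genes typical of monocytes had no single direction. Of 9 measured members, 3 were higher in the macrophages by 2-fold or more and 3 lower by as much (median log2 ratio 0.32, 9 with a ratio). Chil3, a chitinase-like protein, had 798 in the macrophages and 3.26 in the DCs, while S100a4, a calcium-binding protein, had 2153 in the macrophages and 11507 in the DCs and Plac8 2804 in the macrophages and 11062 in the DCs. Genes used to grade macrophage polarization were more often higher than lower in the macrophages. Of 16 measured members, 3 lay under the floor on both arrays, 11 were higher in the macrophages by 2-fold or more and 1 lower by as much (median log2 ratio 2.86, 13 with a ratio). Arg1 and Nos2, the 2 arginine enzymes used to grade macrophages as alternative or classical, lay under the floor on both arrays.

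Among common reference genes, Hprt had 2768 in the macrophages and 2830.3 in the DCs, Rpl13a 9736 in the macrophages and 16753 in the DCs with log2 ratios of -0.65 to -1.81 from its other probe sets, and Polr2a was 2.14-fold higher. Probe sets that name several genes or none were not used above. Of 691 that name several, 453 had a ratio, with 15 higher and 5 lower by 4-fold or more, and of 1555 that name none, 530 had a ratio, with 25 higher and 4 lower.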
